A study of Mus musculus with 4 samples.

Results

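MyoD-bound sites that were called in both conditions and lay beside a gene, in the 2000 bases before its start or after its end, made up 854 of the 8592 pairs of overlapping peaks found in mouse myotubes kept with or without pyruvate. Members were selected on the peak calls themselves: a peak of each list had to overlap a peak of the other by at least 1 base, both had to be assigned to a 2000-base gene flank in the deposited gene annotation, and pairs in which both peaks were 400 bases or wider were left out. The 854 pairs comprised 850 distinct peaks of the 11907 in the list labelled with pyruvate and 850 of the 19338 in the list labelled without pyruvate. A further 63 flank pairs were left out by the width limit.

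The cells were primary myoblasts of C57BL/6 mice aged 2 weeks, grown in 20% fetal bovine serum and differentiated for 5 days in 2% horse serum into myotubes, the multinucleated precursors of muscle fibres. All groups shared this culture, and for the last 24 hours the medium did or did not contain pyruvate, the end product of glycolysis. MyoD was precipitated with the antibody SC-760, and libraries were amplified for 15 cycles. The 4 samples were a ChIP library and an input per condition, and the inputs were not analysed here. Each condition had 1 library, so no value could be checked against a replicate and p-values were not computed. Whether cultures or animals were pooled is not given in the sources used here. Which condition a list belongs to rests on the sample titles alone, since an abbreviation in the deposited names can be read the opposite way. No fold enrichment or read depth could be used, so each peak is described by its position and by its width, which is end minus start.

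MyoD is a basic helix-loop-helix factor that pairs with E proteins and binds E-boxes, short DNA motifs of the form CANNTG. It prefers CAGCTG and CAGGTG. In muscle precursors it opens the chromatin of muscle genes and switches on later regulators such as myogenin, which then drive the genes of the sarcomere, the neuromuscular junction and membrane fusion. Genome-wide, most MyoD sites lie far from promoters, and those close to a gene start are a minority.

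The promoters of 6 genes with a shared flank peak close to their start are shown because they display where the E-boxes fell. Each is the RefSeq sequence of the 250 bases before the start in build GRCm38.p6, while the peaks are given in mm9, and no coordinate was converted between them. Capitals mark CAGCTG and CAGGTG or its reverse complement CACCTG, searched on both strands. Chrna1, Musk and Hes6 encode an acetylcholine receptor subunit, the kinase that organises the neuromuscular junction and a helix-loop-helix protein that promotes myogenic differentiation. Kbtbd10, now called Klhl41, encodes a sarcomere-associated kelch protein, Ppard a lipid-sensing nuclear receptor and Synpo2l an actin-associated protein of the sarcomere.
Chrna1, chr2:73580339-73580588, minus strand: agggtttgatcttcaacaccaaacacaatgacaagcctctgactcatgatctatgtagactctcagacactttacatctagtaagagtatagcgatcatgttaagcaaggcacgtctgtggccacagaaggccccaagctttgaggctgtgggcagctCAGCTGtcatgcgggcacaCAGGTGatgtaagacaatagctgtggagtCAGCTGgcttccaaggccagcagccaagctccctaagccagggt
Musk, chr4:58285712-58285961, plus strand: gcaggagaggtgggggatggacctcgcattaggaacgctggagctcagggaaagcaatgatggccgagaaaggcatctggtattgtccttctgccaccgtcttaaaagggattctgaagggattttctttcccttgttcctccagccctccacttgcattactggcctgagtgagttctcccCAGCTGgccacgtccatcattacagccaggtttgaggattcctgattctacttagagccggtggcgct
Hes6, chr1:91414039-91414288, minus strand: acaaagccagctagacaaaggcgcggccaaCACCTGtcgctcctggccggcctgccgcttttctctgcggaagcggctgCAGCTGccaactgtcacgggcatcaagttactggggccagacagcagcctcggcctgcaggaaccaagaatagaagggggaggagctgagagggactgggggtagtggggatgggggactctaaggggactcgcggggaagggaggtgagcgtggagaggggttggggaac
Kbtbd10, chr2:69669870-69670119, plus strand: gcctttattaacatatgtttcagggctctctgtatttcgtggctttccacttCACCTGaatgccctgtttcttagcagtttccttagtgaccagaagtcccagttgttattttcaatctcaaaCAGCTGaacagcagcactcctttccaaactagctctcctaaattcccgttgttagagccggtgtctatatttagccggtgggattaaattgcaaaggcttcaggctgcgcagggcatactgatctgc
Ppard, chr17:28232504-28232753, plus strand: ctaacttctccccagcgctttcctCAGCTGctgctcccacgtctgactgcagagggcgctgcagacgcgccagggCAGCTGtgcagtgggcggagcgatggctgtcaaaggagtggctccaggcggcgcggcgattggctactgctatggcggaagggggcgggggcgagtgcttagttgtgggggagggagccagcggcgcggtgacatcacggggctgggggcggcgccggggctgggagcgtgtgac
Synpo2l, chr14:20668355-20668604, minus strand: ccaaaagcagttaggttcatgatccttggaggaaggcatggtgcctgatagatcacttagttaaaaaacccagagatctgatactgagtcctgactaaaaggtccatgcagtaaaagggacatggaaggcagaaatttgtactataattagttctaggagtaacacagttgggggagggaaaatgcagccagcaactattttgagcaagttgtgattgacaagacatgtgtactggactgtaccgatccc

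Only the marked motifs were counted, and other E-boxes of the form CANNTG in these sequences were not. The Chrna1 promoter held 3 marked motifs, beginning at positions -92, -73 and -44, counting the start as 0. Musk held 1, at -68. In Hes6 they began at -220 and -171, in Kbtbd10 at -198 and -127, and in Ppard at -226 and -175. In Synpo2l neither motif occurred in the 250 bases, although its peaks of 302 and 295 bases had their centres 44 and 37 bases before the start. A letter match is a description and not a shown binding site, and over all 27025 RefSeq promoter windows of 300 bases (250 before to 50 after the start) 32.6% held at least 1 of these motifs. Gene lengths in the files and in RefSeq were equal for Hes6 and Ppard and differed by 1 base for Synpo2l, 9 for Kbtbd10, 66 for Chrna1 and 663 for Musk, so the start may not be the same base in the last 2.

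The shared peaks lay beside 947 genes, which is 13.1% of the 7235 genes named in the files. Of these genes, 715 carried a symbol, 71 of them a clone-type name (Gm or Rik), and 232 were listed by identifier alone. Of the pairs, 719 each lay in the flank of only 1 gene, and 134 lay in the flanks of 2 or more genes. Among the 128 pairs in the flanks of exactly 2 genes, 75 lay between genes on opposite strands and 53 beside genes on the same strand. In 1 pair the 2 files gave different flank genes. More than 1 member was found beside 44 genes, among them Ttn, Jph1, Kbtbd10, Popdc2, Dtna, Aldoa and Gdnf, and 7 genes had a member in each flank, which Jph1 and Popdc2 did among the genes of the muscle lists.

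Where in the flank the sites lay was not fixed by the selection. The files gave 994 pairings of a member with a gene's flank. Upstream or downstream could be placed for 415 of them, from a gene body or a second flank listed for the same gene, and 271 of these were upstream, or 65.3% (95% exact interval 60.5 to 69.9). The upstream members that could be placed were gathered at the start. The mean of the 2 peak centres lay within 250 bases of it for 138 of 271, or 50.9% (44.8 to 57.0). Downstream members showed no such gathering at the gene end, with 18 of 144 within 250 bases of it, or 12.5% (7.58 to 19.0). For the 579 flanks whose side is not shown, 164 centres, or 28.3% (24.7 to 32.2), lay within 250 bases of the edge that is the gene start if the flank is upstream. The limit of 250 bases was chosen after the data were seen, and the intervals cover counting error only. A peak that crosses a gene's start or end can itself be listed in the body and so place the flank. Nearness to an edge thus helped decide which flanks were placed, and its part in these shares was not tested.

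**Figure D1:**
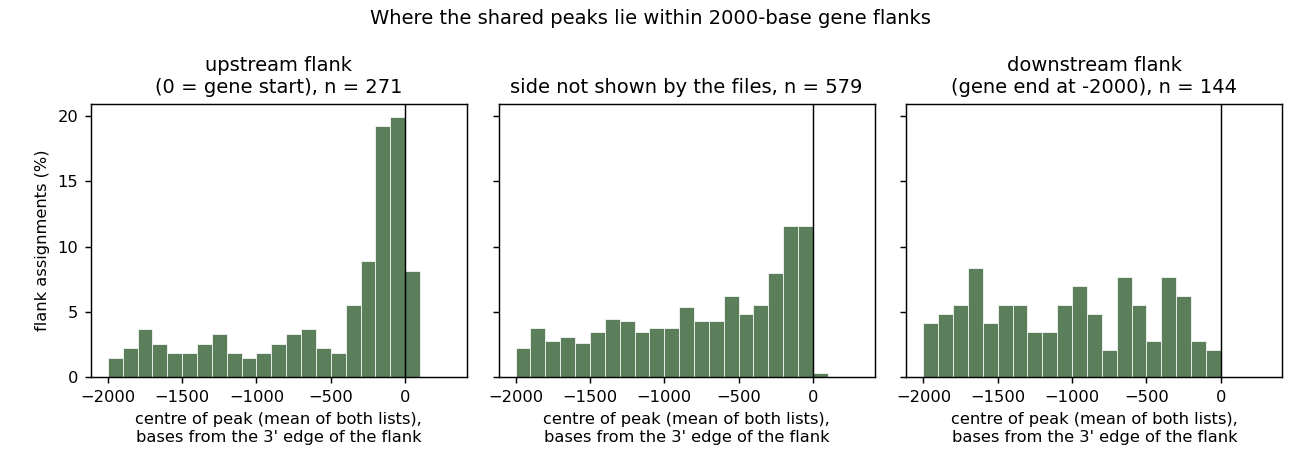
Share of flank pairings (%) by the position of the peak centre (mean of both lists, in bases from the flank's 3′ edge in the direction of the gene, bins of 100 bases) for upstream flanks, flanks of unknown side and downstream flanks. The upstream panel has its highest bars next to the start, the middle panel has a lower rise at the same place, and the downstream panel is spread over the flank.

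The median distance from the start was 240 bases for upstream members (interquartile range 87.8 to 896). Downstream members lay a median of 980 bases from the gene end (419 to 1430). The sides could be placed mainly where a gene also had a peak in its body, which can be the member itself. The placed flanks are therefore not a random part of all flanks. Of the 950 gene identifiers with a member, 245 had a body peak in both lists, 44 only in the list with pyruvate, 75 only in the list without, and 586 had none. In both files, 292 pairs, or 34.2%, were listed within a gene body as well. That body can belong to another gene in which the flank lies. It can also belong to the flank's own gene, where a peak crosses the start or end. The count does not separate these cases.

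The 10 members nearest to a located start, by the summed distance of both centres, lay beside Ttc7, Gatsl2, Ypel3, Ddhd1, Grk4, Slc44a1, Tmem65, Evi2a and 2 genes without a symbol. None of these is a gene of the muscle lists. Slc44a1 encodes a choline transporter and Grk4 a kinase that phosphorylates G-protein-coupled receptors. At Ttc7 the peaks chr17:87682116-87682364 and chr17:87682113-87682344 had centres 14 and 2 bases past the start. At Ddhd1, which encodes a phospholipase, both centres lay 15 bases past it, in peaks of 226 and 234 bases. Widths at these 10 sites ran from 161 to 302 bases, about the member medians of 257 and 264, and the choice by both centres itself brings the 2 peaks close together.

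Some peaks lay in the upstream flanks of 2 divergent genes, and those described here were named after their values were seen. Between the starts of Hmbox1 and Ints9, a subunit of the Integrator complex, the peaks had their centres and were 220 and 251 bases wide. At Brp44, now called Mpc2, whose product takes pyruvate into mitochondria, peaks of 319 and 310 bases spanned the start, with centres 86 and 101 bases past it, and also lay in the upstream flank of Dcaf6. Both sides could be placed for only some of the pairs in the flanks of exactly 2 genes. Among these, 18 lay upstream of both genes, 9 upstream of one and downstream of the other, and 3 downstream of both.

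The share of promoter windows with a motif varied with the position of the peak. The window runs from 250 bases before to 50 after the start, so it lies at the peak only for members near the start. For members farther out or downstream the sequence at the peak itself was not read, and no lack of E-boxes there is shown. RefSeq gave a promoter window for 542 of the member genes, and 266 of them, or 49.1% (44.8 to 53.4), held a CAGCTG or CAGGTG motif. Among the 4205 genes named in the files without a member it was 34.0% (32.5 to 35.4), and among all 17491 protein-coding windows 31.1%. For genes with an upstream member within 250 bases of the start it was 74 of 91, or 81.3% (71.8 to 88.7). Beyond 500 bases upstream it was 21 of 61, or 34.4% (22.7 to 47.7), and the interval included the share of all windows. The flanks of unknown side gave the same order, with 77 of 101 (76.2%, 66.7 to 84.1) within 250 bases and 39 of 148 (26.4%, 19.5 to 34.2) beyond 500. For downstream members it was 36 of 85 (42.4%, 31.7 to 53.6). The windows near upstream members held a median of 22 CpG dinucleotides, against 14 beyond 500 bases and 13 in protein-coding windows. The median was 20 in named genes without a member. In flanks of unknown side it was 20 within 250 bases and 18 beyond 500. The part of base composition in these shares was not tested.

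**Figure D2:**
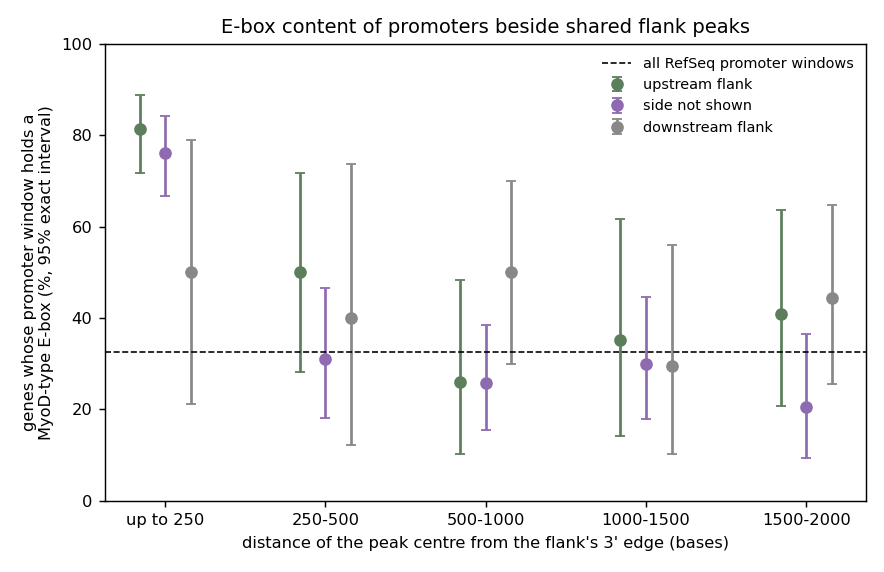
Share of genes whose RefSeq promoter window holds a MyoD-type E-box (%, bars are 95% exact intervals) by the distance of the peak centre from the flank's 3′ edge, in bases, for the 3 kinds of flank. The shares of 81.3% and 76.2% at up to 250 bases stand above the dashed line at 32.6% for all RefSeq windows, and farther out the intervals of upstream and unknown flanks reach the line.

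The motifs differed in which E-box they were. CAGCTG was present in 56.0% of the 91 near-start windows of upstream members against 15.1% of protein-coding windows. CAGGTG or CACCTG was in 38.5% against 19.3%. CACGTG, the E-box of Myc-type factors, was in 11.0% against 7.91%. The other 7 E-box classes were in 1.10 to 12.1% of near-start windows and in 3.27 to 14.9% of protein-coding ones. Each of these 7 was lower in the near-start windows of upstream members. In the 101 windows near the edge of flanks of unknown side, CAGCTG was in 54.5% and CAGGTG or CACCTG in 35.6%. There CACGTG was in 7.92%, and CAACTG or CAGTTG was higher than in protein-coding windows, with 16.8% against 12.4%. Beyond 500 bases upstream CAGCTG was in 14 of 61 windows and CAGGTG or CACCTG in 11. At least 2 motifs of the MyoD type were present in 20 of the 91 near-start windows, or 22.0%, against 6.54% of protein-coding windows.

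E-boxes also lay inside the peaks. For 29 genes with both centres within 250 bases of the start, the gene had the same length in the files and in RefSeq to within 20 bases, so that positions from the start could be compared without coordinates. Of these, 23 held a MyoD-type E-box in the window, and in 22 of them at least 1 lay inside both peaks. Of their 33 motifs, 29 lay inside both peaks. The nearest motif was a median of 18.5 bases (interquartile range 8.75 to 24.8) from the mean of the 2 centres. These genes were chosen for peaks near the start, and motifs were searched only in the window there. Part of the overlap of motifs and peaks is therefore built in. The share of the window that both peaks covered was not computed, so the counts and the distance are a description. At Dusp27, which encodes a dual-specificity phosphatase-like protein, the centres lay 26 and 31 bases before the start and the motif began at -12. At Hes6 the peaks spanned both motifs shown above. H6pd, a pentose phosphate enzyme of the endoplasmic reticulum, had its motif at -24, outside both peaks, and was chosen for naming after its values were seen.

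**Figure D3:**
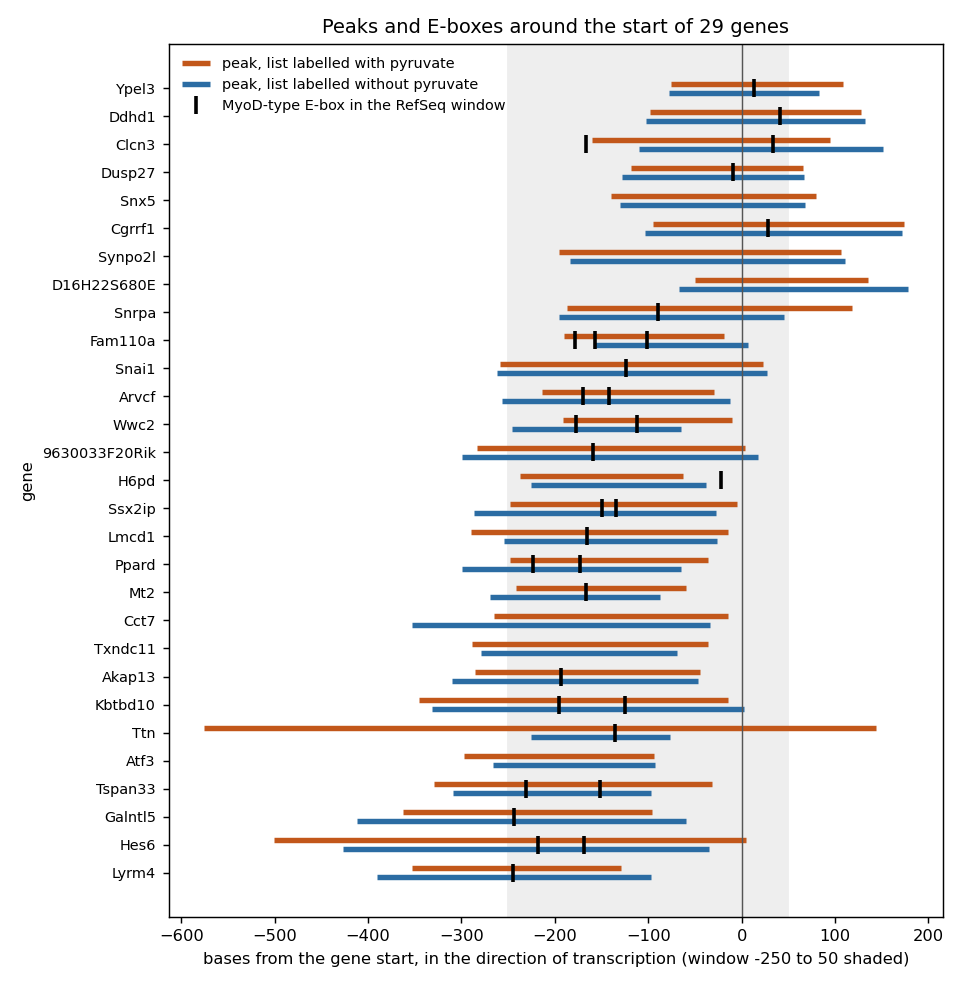
Extent of the shared peaks of both lists (coloured bars) and of MyoD-type E-boxes (black ticks) in bases from the gene start for the 29 genes with the same length in both annotations. In 22 of the 23 genes with a tick at least 1 lies inside both bars, and H6pd is the exception.

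Flank peaks found in 1 list only were set beside these. Near the start edge (upstream or side unknown), 151 of 192 genes with a shared peak had the motif, or 78.6% (72.2 to 84.2). With a peak only in the list with pyruvate it was 66 of 118 (55.9%, 46.5 to 65.1), and with a peak only in the list without it was 95 of 140 (67.9%, 59.4 to 75.5). The first interval did not overlap that of the peaks only in the list with pyruvate and did overlap that of the peaks only in the list without. Upstream peaks only in the list with pyruvate lay within 250 bases of the start in 83 of 131 cases (63.4%, 54.5 to 71.6), those only in the list without in 97 of 225 (43.1%, 36.5 to 49.9), on either side of the 50.9% of shared peaks. Of all flank peaks, 71.5% (69.0 to 74.0) of the list with pyruvate and 50.8% (48.5 to 53.1) of the longer list without overlapped the other list.

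The 2 peaks of a pair overlap by the rule that chose them, so their closeness is only described. The median overlap was 224 bases (range 17 to 399), and in 817 pairs, or 95.7%, it covered at least 80% of the narrower peak. The centres were a median of 18 bases apart and lay within 50 bases in 731 pairs, with the farthest pair 298 bases apart. In shared pairs only inside gene bodies the median was 17.5 bases, and in those outside all gene regions 17. Widths were a median of 257 bases (range 169 to 957) in the list with pyruvate and 264 bases (144 to 847) in the list without. On the log2 scale the width with over that without pyruvate had a median of -0.06 (interquartile range -0.31 to 0.23). Across the 854 pairs the log2 widths correlated at r = 0.37, a description over sites that share the same 2 libraries and the width limit.

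The peak was wider in the list with pyruvate in 363 pairs, or 42.5% (39.2 to 45.9), wider in the list without in 482, and equal in 9. Over all 8592 shared pairs 38.2% were wider with pyruvate. At least 1.5 times wider with pyruvate were 77 members, or 9.02%, against 7.04% of all shared pairs, and at least 1.5 times wider without were 74, or 8.67%, against 12.4%. Because width helped choose the members, nothing is read from these shares. Shared peaks only inside gene bodies were wider with pyruvate in 39.3% (37.8 to 40.8) and those outside all gene regions in 35.4% (33.7 to 37.1). Members near the start edge and the other members had like shares, 42.8% (37.0 to 48.7) and 42.4% (38.3 to 46.6).

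**Figure D4:**
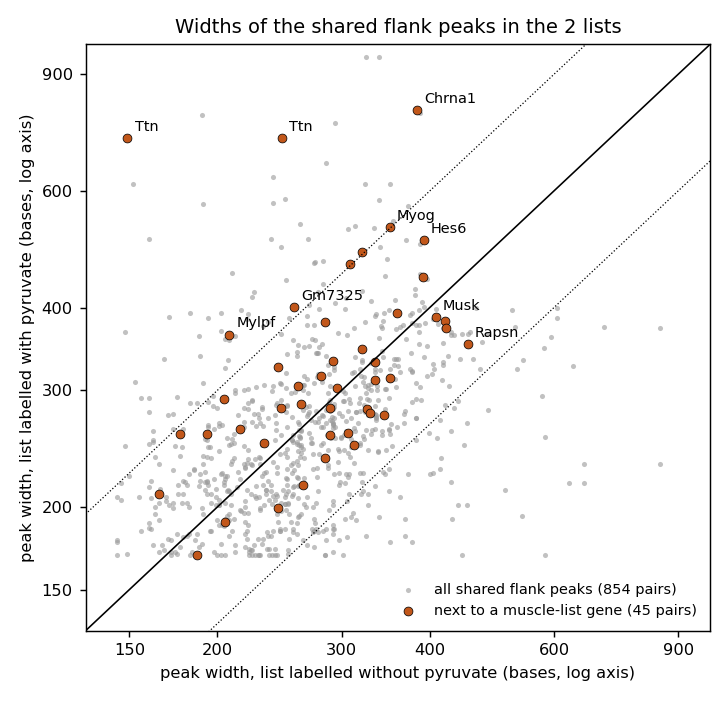
Peak width in bases of the 854 pairs in the list without pyruvate (x, log axis) and with pyruvate (y, log axis). The solid line marks equal width and the dotted lines 1.5 times, and filled circles are the 45 pairs beside genes of the 4 muscle lists, 26 of them above the line.

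Genes of the muscle programme were followed through 4 lists, of myogenic regulators, the sarcomere, synapse with excitation and calcium, and sarcolemma with adhesion and fusion. Of their 161 genes named in the files, 40 had a member in a flank, beside the 13.1% of all named genes. Their 39 flank pairings not known to be downstream had the centre within 250 bases of the start edge in 26, or 66.7% (49.8 to 80.9), against 276 of 811, or 34.0% (30.8 to 37.4), for other genes. Peaks beside muscle-list genes were wider with pyruvate in 26 of 45 pairs and wider without in 19, with a median log2 width of 0.12 and the Ttn site counted as 2 pairs. The other pairs were wider with pyruvate in 337 of 809, with a median of -0.08. Width was part of the selection and each list is 1 library, so no difference is read from these counts or from those of the single lists, and each would turn round if the titles were reversed. Of the 14 muscle-list genes with a near-start member and a RefSeq window, 12 held the E-box, with a median of 8 CpG dinucleotides in the window.

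Among the myogenic regulators, 6 of 30 named genes had a member, and 4 of the 6 peaks were wider with pyruvate (median log2 0.28). Beside Myog, which encodes myogenin, the peak chr1:136186106-136186635 was 529 bases wide with pyruvate and 351 without, with centres 211 and 190 bases from the flank's 3′ edge. The peaks at Hes6 were 506 and 392 bases and also lay in the flank of Per2, a repressor of the circadian clock. Beside Mef2a, a MADS-box partner of MyoD, they were 486 and 321 bases. These 3 were the widest of the group and all were wider with pyruvate. At Snai1, a zinc-finger repressor, the widths were 282 and 289 bases, with both centres 118 bases before the start. Runx1 had peaks of 248 and 312 bases far upstream, 1817 and 1840 bases from the start, and Tead1 had peaks of 282 and 246 bases downstream.

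The sarcomere list had the most, 17 of 54 named genes (31.5%), with 15 of 19 pairs wider with pyruvate and a median log2 width of 0.19. At Ttn, which encodes the giant protein titin, 1 peak of 720 bases with pyruvate (chr2:76820460-76821180) spanned the start and overlapped 2 peaks of 149 and 247 bases in the other list, so the largest width ratio was a site called as 2. At Mylpf, the fast regulatory myosin light chain, the widths were 364 and 208 bases. At Tnnt1, the slow troponin T, they were 258 and 177 bases, and at Trim55, a titin-binding ubiquitin ligase, 445 and 391 bases. All of these were wider with pyruvate. Those wider without it were at Xirp1, with 373 and 422 bases, Mylk2, with 259 and 306, Trim54, with 190 and 205, and the near-start member of Kbtbd10, with 331 and 335.

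Several sarcomere members differed little in width. Des, the intermediate filament desmin, had peaks of 315 and 280 bases with centres 65 and 79 bases from the start edge. Synpo2l had 302 and 295 bases, Lmod3 286 and 263, Myh1 346 and 321 and Pdlim3 250 and 233, each slightly wider with pyruvate. Fhl3, a LIM protein, had 380 and 284 bases at 1494 and 1549 bases from the start edge of a flank of unknown side. Downstream members lay at Acta1, the skeletal muscle actin (209 and 165 bases), Tnnc1, the slow troponin C (291 and 204), and Myl1, an essential myosin light chain (262 and 215). These 3 downstream sites were each wider with pyruvate.

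The synapse, excitation and calcium list had 10 of 37 named genes (27.0%), and 9 of the 10 had a member near the start edge, the highest share of the 13 gene lists. The embryonic acetylcholine receptor was covered by its alpha, beta, delta and gamma subunits. Chrna1 had the widest of the list, 794 bases with pyruvate (chr2:73418286-73419080) against 384 without (chr2:73418306-73418690). Chrng had 465 and 308 bases, Chrnd 332 and 292, and Chrnb1 311 and 335, with Chrnd and Chrnb1 centred 16 to 32 bases from the start edge. The first 3 were wider with pyruvate and the fourth was not.

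Partners of the receptor had similar sites. Musk had 387 and 408 bases, and Rapsn, the protein that clusters the receptor, 352 and 453 bases centred 51 and 19 bases from the start edge. Both were wider without pyruvate. Of the calcium-handling genes, Cacng1, a subunit of the muscle calcium channel, had 393 and 359 bases, and Jsrp1, a junctional protein of the sarcoplasmic reticulum, 277 and 329. Jph1, which joins that membrane to the transverse tubule, had a member in each flank, of 169 and 187 bases at the start and 382 and 421 bases downstream. Atp2a1, the calcium pump SERCA1, had 313 and 351 bases at 1261 and 1328 bases upstream. In this list 4 of 11 pairs were wider with pyruvate, with a median log2 width of -0.11.

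The sarcolemma, adhesion and fusion list had 7 of 41 named genes (17.1%), with 3 of 9 pairs wider with pyruvate and a median log2 width of -0.21. Both fusion genes of myoblasts had a near-start member that was wider with pyruvate. Tmem8c, which encodes myomaker, had peaks of 325 and 244 bases centred 24 and 17 bases before the start. Gm7325, which encodes myomixer, had 401 and 257 bases centred 73 and 108 bases from the start edge. Dtna, an adaptor of the dystrophin complex, had one upstream member of 304 and 260 bases and another of 199 and 244. Members wider without pyruvate lay at Lama2, a laminin chain (281 and 326 bases), Ncam1, a cell adhesion molecule (216 and 264), and in both flanks of Popdc2 (257 and 289 upstream, 237 and 284 downstream).

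**Figure D5:**
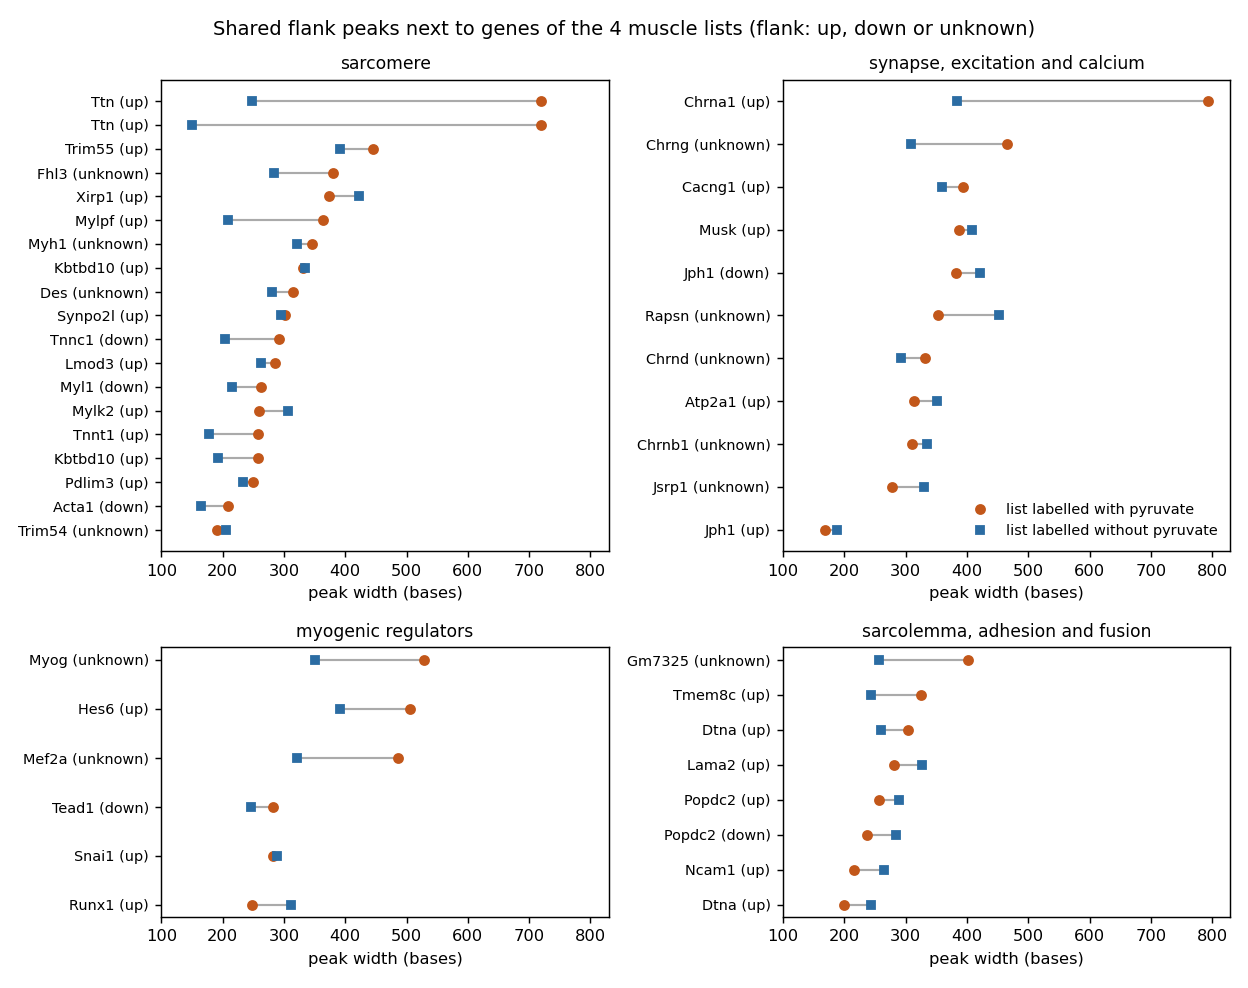
Peak width in bases in the list with pyruvate (circles) and without (squares) for the shared flank peaks beside genes of the 4 muscle lists, 1 sarcolemma pair left out, with the side of the flank in brackets. Circles lie to the right of squares for 15 of 19 sarcomere pairs, 4 of 11 synapse pairs, 4 of 6 regulator pairs and 3 of the 8 sarcolemma pairs drawn.

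Genes of glucose and pyruvate use, the pathway closest to the treatment, were held in 2 lists. In glycolysis and glycogen use it was 6 of 22 named genes (27.3%), with 3 of 7 pairs wider with pyruvate and a median log2 width of -0.01. Enolase genes Eno1 (409 and 330 bases) and Eno3 (231 and 287) had members 1777 and 1779 and 1181 and 1220 bases upstream. Slc2a4, the insulin-responsive glucose transporter, had 386 and 253 bases. Tpi1, triosephosphate isomerase, had 248 and 261 bases 87 and 88 bases from the start edge. Aldoa, muscle aldolase, had a pair of upstream members (261 and 263, 300 and 218 bases), and Pygm, muscle glycogen phosphorylase, a downstream one (209 and 223 bases).

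In the list of pyruvate, citrate cycle and respiration it was 4 of 20 (20.0%). Besides Brp44, these were Pcx, pyruvate carboxylase, with 219 and 189 bases, Ppard with 212 and 234, and Ndufa4, a respiratory chain protein, with 261 and 261. Of the 4 pairs, 2 were wider with pyruvate, 1 without and 1 equal, and every one of these peaks was of similar width in both lists.

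The other lists lay below or above the 13.1% of all named genes, on few members each. For the Notch pathway and satellite cells it was 2 of 24 named genes (8.33%): Hes1, a Notch target, with 374 and 529 bases, and Spry2, a brake on growth factor signalling, with 199 and 230, both wider without pyruvate. For the cell cycle it was 3 of 20 (15.0%): E2f3 with 540 and 355 bases, Gadd45g with 470 and 282 downstream, and Myc with 185 and 272. For insulin, mTOR and proteolysis it was 2 of 28 (7.14%): Ddit4, an inhibitor of mTOR signalling, with 193 and 309 bases, and the autophagy receptor Sqstm1 with 183 and 235. None of 22 named genes of TGF-beta, BMP and Wnt signalling had a member.

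Secreted factors had 3 of 17 named genes (17.6%) with a member, Ctf1 (365 and 246 bases), Lgals1 (262 and 179) and Gdnf. The neurotrophic factor Gdnf had a pair of sites, of which one was 217 bases with pyruvate and 630 without and the other 192 and 274. Csf3, which encodes the growth factor G-CSF, had no member. A list of genes of other lineages had 3 of 14 (21.4%): Krt8, an epithelial keratin (207 and 363 bases), Pecam1, an endothelial adhesion molecule (291 and 326), and Cd68, a macrophage protein, all wider without pyruvate. Of markers of cell types, 5 of 7 myotube markers (Myog, Acta1, Des, Chrna1 and Ttn) had a member. So did 1 of 2 named macrophage genes (Cd68) and 1 of 2 named endothelial genes (Pecam1). The files named only 1 satellite cell, 2 fibroblast, 2 neuron and 1 liver marker, and none of them had a member. Beside the 13.1% of all named genes, none among so few is near that share, and no absence of a cell type is read from it. Peaks are sites of binding and not expression, and the Cd68 peak, 209 and 234 bases wide, lay in the flanks of 2 further genes.

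Gene families defined by their symbols lay on both sides of the share of all named genes. Of 118 named solute carriers 9 had a member (7.63%), of 100 zinc finger genes 9, of 31 collagens 2 and of 17 integrins 1, beside the 13.1% of all named genes. No member lay beside any of the 30 named potassium channel genes, 23 Rab GTPases, 10 histones or 4 Hox genes, and for the small ones among these families a count of 0 is near that share. Other families lay at or above it on few genes, with 4 of 29 heat shock proteins, 3 of 19 Trim proteins, 3 of 15 PDZ-LIM and related LIM proteins, 3 of 15 respiratory chain subunits, 2 of 12 proteasome genes, 3 of 8 ribosomal proteins (Rpl41, Rps18 and Rps28) and 3 of 8 olfactory receptors (Olfr1331, Olfr530 and Olfr809). At Rpl41, which is not among the genes with a located start, the centres lay 1 and 6 bases from the start edge, in peaks of 273 and 291 bases. The olfactory receptor peaks lay 568 to 1808 bases from the start edge, with no side shown.

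The widest members by the narrower of their 2 peaks were at the limit of the rule. Just inside it were peaks of 399 and 606 bases beside ENSMUSG00000085532, 399 and 465 beside Mrgpre, and 398 and 408 beside ENSMUSG00000087056. Just outside were 427 and 400 bases beside Pbxip1 and Pygo2, 466 and 400 beside ENSMUSG00000088293, and 402 and 421 beside Asb5. Others among the widest 10 were beside Atf4, the stress-response regulator (397 and 523 bases), Hes6, Trim55, Catsper1 (408 and 390) and Sync, which encodes the desmin-binding protein syncoilin (786 and 388). Both sides of the limit thus held named and unnamed genes alike.

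Some of the largest width ratios came from a site called as 1 peak in one list and 2 in the other, which was so for 4 peaks of each list. Towards the list with pyruvate these were Ttn and the site between Khk, ketohexokinase, and Cgref1, 614 bases against 324 and 152. Towards the list without they were ENSMUSG00000084894 (847 bases against 232 and 373), ENSMUSG00000090593 (582 against 169 and 255) and the site of Hrct1 and ENSMUSG00000028475 (662 against 232 and 217). Others were single peaks in both lists: Josd2, with 782 and 190 bases, ENSMUSG00000087129, with 574 and 191, and Gdnf, with 217 and 630. At Josd2 the narrower peak lay within the wider, at chr7:51728693-51728883 inside chr7:51728207-51728989.

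Over all chromosomes 854 of the 8592 shared pairs were members, and the chromosomes with the highest and lowest shares are given here. The share of shared pairs that were members was 15.4% (12.3 to 18.9) on chromosome 7 and 14.8% (12.0 to 17.9) on chromosome 11. It was 5.88% (3.72 to 8.77) on chromosome 12 and 6.00% (3.88 to 8.80) on chromosome 13. The other chromosomes had shares between these. The number of genes on each chromosome was not taken into account, so no difference between chromosomes is read. The number of members ran from 7 on chromosome X to 85 on chromosome 11.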

How the data were processed

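The submitters' processing notes name MACS2 2.1.1, Bowtie2 2.1.0, bcl2fastq 2.19 and the mouse build mm9. Calling thresholds, the use of the inputs and the origin of the gene regions are each not given in the sources used here. Tables deposited by the authors pair peaks with gene bodies and 2000-base flanks, per the file headers and values. The authors' fold enrichment column held 0 in every numeric row (0 other values), so peak coordinates and widths were used and depth is unknown. A region was listed whenever the peak's midpoint lay in it, and 136 touched regions in one list and 121 in the other were not listed. Peak width can also vary with read depth and with the length of the fragments.

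Rows were reduced to distinct peaks and overlapped by at least 1 base. A gene's flank was placed from its listed body and strand or from a second flank. Shares carry 95% exact Clopper-Pearson intervals, which cover counting error only. Symbols were matched to RefSeq (GRCm38.p6) for 694 of 715 member symbols, and 1 promoter window per gene, the most 5′, was searched for motifs. Members, 13 gene lists and 25 symbol families were chosen with earlier results of these data known. The naming rule took up to 6 genes per list by the narrower width, the 10 widest, the 5 largest ratios each way, the 10 nearest to a start, up to 8 promoters and Myog, Des, Chrna1 and Csf3; the further members of the muscle lists were named after their values were seen, and 2 items are not reported here. Alternatives changed the overlap, flank, width limit, minimum width, fold and promoter window. The pairing code was tested on simulated peaks and found 100 of 100 planted members. Tables were made in Python 3.11.15 with pandas 2.3.3 and numpy 2.4.6, intervals with scipy 1.17.1 and plots with matplotlib 3.10.9.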

Additional observations from a re-analysis of the deposited data

How the results depend on the processing

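Of 88 alternative values, 71 stayed within the set margin and 17 moved. The members at least 1.5 times wider with pyruvate were 77, and 51 with a reciprocal overlap of 50%, which by construction removes pairs of very unequal width, 49 with peaks of at least 200 bases, 159 at the lower fold tried and 23 at a fold of 2. Those wider without were 74, and 59, 44, 201 and 15 under the same settings. The balance of 77 to 74 thus turned over at 51 to 59 and 159 to 201, and also at 56 to 62 with centres within 100 bases and 62 to 65 with a limit of 300 bases, so neither side is called the larger. The median width was 263 and 273 bases (with and without) for pairs of any width, 239.5 and 251 with a limit of 300 bases, and 278 and 290.5 with at least 200 bases, as those rules fix it. The E-box share of member genes was 43.2% in the 250 bases before the start only and 60.4% for upstream genes only. With upstream flanks only, 35 of the 64 list genes had a member. The near-start E-box share, chosen after seeing the data with its alternatives, was 68.1% in the 250 bases only, against 81.3%, and 77.1% for centres within 100 bases and 79.3% for equal gene lengths. No paired analysis was possible because each condition has 1 library. Peaks under the unknown calling threshold are not seen, so absence from a list is not absence of binding.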

Other observations

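Muscle genes outside the lists also had shared flank peaks, and these were named after their values were seen. Mamstr, a coactivator of MEF2 factors, had peaks of 499 and 388 bases with centres 278 and 271 bases before its start. Mb, which encodes the oxygen carrier myoglobin, had a pair of downstream sites of 392 and 183 and of 422 and 278 bases. Obsl1, an obscurin-like cytoskeletal protein, had peaks of 357 and 275 bases upstream, and Prkag3, the muscle subunit of AMP-activated kinase, 219 and 161 bases. All of these were wider in the list with pyruvate. Vgll2 and Vgll3, cofactors of TEAD factors, had sites that were equal or wider without it, with 209 and 209 and 195 and 253 bases at Vgll2 and 211 and 350 bases at Vgll3.

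Shared sites also lay beside genes of a wider kind. Snai2, a zinc-finger repressor related to Snai1, had sites of 181 and 238 and of 222 and 277 bases. Klf4, a Krüppel-like factor, had 260 and 429 bases, and Bhlhe40, a helix-loop-helix repressor, 309 and 153 bases downstream. Orai1, the plasma membrane channel of store-operated calcium entry, had 272 and 279 bases, and Acta2, the smooth muscle actin, 357 and 256 bases.

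Among the 233 member genes that the deposited files assign to a pathway class, 68 (29.2%) fell under signal transduction, against 34.5% of the 2105 annotated genes. Translation held 16 (6.87%), against 4.66%. These classes were not picked by the naming rule. Others differed more, such as the nervous system (5.15% against 9.31%), or hardly, such as cellular community (14.2% against 13.6%). No difference is read from these shares. A member gene listed as 4-Sep carries a symbol in the form of a date.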
